A study of Mus musculus with 8 samples.

Results

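Immature neuron genes are a set of 9 transcripts that mark young, growing neurons: Sox4 and Sox11 (transcription factors), Dcx, Tubb3, Stmn1, Stmn2 and Dpysl3 (the microtubule cytoskeleton), Gap43 (the growth cone) and Igfbpl1 (a secreted protein). They were taken by symbol from the 55341 genes of the count files, and 8 of the 9 had enough counts to be tested, among 17355 genes tested in all. The data were nuclear RNA from GABAergic neurons, the inhibitory neurons of the cortex, sorted from juvenile mice by a nuclear fluorescent reporter that Cre recombinase switches on. The labels name neither the promoter that drives Cre nor the exact age, sex or litter of the mice. Both groups were hypothyroid, because their mothers received propylthiouracil (PTU), which blocks thyroid hormone synthesis, during gestation. The PTU group (mice 9 to 12, n = 4), here also called without TH, got nothing further. The PTU+TH group (mice 13 to 16, n = 4) received an intraperitoneal injection of thyroid hormone (TH) 24 h before the cortex was collected, with no dose in the labels. Y-linked genes had counts in every library except those of PTU+TH mice 15 and 16. Sex, as read from these genes, was therefore unbalanced between the groups. No group with normal thyroid function was analysed here, so a level cannot be called delayed or normal.

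Newborn neurons carry a transcriptional programme for migration and outgrowth. SoxC transcription factors switch on cytoskeletal genes, and the microtubule and growth cone proteins they serve build the leading process and the axon. These transcripts decline as neurons form synapses. Thyroid hormone acts through nuclear receptors that regulate genes directly, and its lack is known to slow the maturation of the brain. The comparison asks whether expression of the juvenile set recedes within a day of hormone.

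No member passed the test. Of the 8 members tested, 0 were called lower and 0 higher in PTU+TH (edgeR quasi-likelihood test, called at a Benjamini-Hochberg adjusted p under 0.05 over all genes tested). Over all genes 2.12% were called in either direction and 0.634% were called lower. DESeq2 and limma voom also called 0 members. At an unadjusted p under 0.05 stood 1 of the 8 members, Dpysl3, which is 12.5% of them, beside 12.8% of all genes tested. In 0 of the 8 did the 4 libraries of one group all lie above the 4 of the other, against 8.71% of all genes. The fold change was below 0 on the log2 scale for 6 members and above 0 for Sox11 and Stmn2. The median log2 fold change was -0.20 for the members and -0.01 for all genes tested, of which 51.4% were below 0. Without PTU mouse 9 the members' median was -0.04, and over the other 17 alternatives it ran from -0.28 to -0.18.

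Known hormone responders rose in the same libraries, at larger folds than that of any member. As the PTU group got nothing further, hormone and injection cannot be told apart. Hr, Klf9 and Dbp, genes known to respond to thyroid hormone, rose by 3.88, 1.37 and 1.09 on the log2 scale, with edgeR adjusted p-values of 6.59e-07, 0.00223 and 0.00639. In the 6 libraries with counts of Y-linked genes, Hr was called (edgeR adjusted p = 0.00028), and Klf9 (log2 fold change 1.23, 0.058) and Dbp (1.14, 0.102) were not. Library totals ran from 21.76 to 29.08 M counts and averaged 24.01 ± 1.39 in PTU and 24.1 ± 3.37 in PTU+TH (SD, n = 4 each; exact permutation test over 70 arrangements, two-sided, p = 1). The GABAergic markers Gad1 and Gad2 averaged 471 ± 51.7 and 427 ± 25.9 CPM in PTU, and 422 ± 22.3 and 458 ± 24.3 CPM after TH (SD, n = 4 each; edgeR adjusted p = 0.669 and 0.802), where CPM is the read count scaled to a common library size. Of the 7 genes in the pan-GABAergic list 6 were tested, 0 were called and 4 had a fold below 0. Groups were apart for Dlx6os1 alone (log2 fold change -0.30, edgeR adjusted p = 0.203), beside 8.71% of all genes. The summed level of 10 excitatory neuron markers spanned 290 to 342 CPM without TH and 275 to 372 CPM after it, with Neurod1 listed at 0. That of 9 oligodendrocyte precursor markers spanned 12.9 to 33.9 CPM without TH and 18.8 to 62.1 CPM after it, with C1ql1 and Gpr17 listed at 0. For astrocytes it spanned 291 to 363 CPM without TH and 297 to 533 CPM after it, with Gfap listed at 0. For 8 oligodendrocyte markers the sum spanned 96.6 to 124 CPM without TH and 95.3 to 195 CPM after it, and for 8 microglial markers 52.4 to 71.2 and 60.6 to 78.0 CPM, with P2ry12 and Itgam listed at 0. Of the markers listed at 0, at most 0.1% of the gene body is free of another gene (Itgam), so their 0 says nothing on expression. In each of these 5 lists 0 genes were called. Folds above 0 numbered 8 of 9 tested excitatory markers (median log2 fold change 0.08), 6 of 7 precursor (0.40), 5 of 7 astrocyte (0.15), 6 of 7 oligodendrocyte (0.68) and 5 of 6 microglial markers (0.52). Of 8 striatal GABAergic markers 7 had a fold below 0 (median -0.13; sums 193 to 256 CPM without TH and 171 to 215 CPM after it), as had 5 of 7 endothelial markers (-0.08; 34.3 to 162 and 36.8 to 119 CPM). Of 8 markers of migrating neuroblasts and olfactory interneurons, cells that themselves express immature neuron genes, 4 had a fold below 0 (-0.01; 630 to 915 and 838 to 1043 CPM). In these 3 lists 0 genes were called, and Penk (striatal) and the tyrosine hydroxylase gene Th (olfactory) each passed in 2 of the 18 alternatives. Of their tested genes only Th had groups apart, higher in PTU+TH (log2 fold change 0.75, edgeR adjusted p = 0.133). Bcas1 of the oligodendrocyte precursor list, at a log2 fold change of 1.48, passed in 2 of the 18 alternatives (adjusted p = 0.00742 with DESeq2 and 0.0462 with edgeR without PTU+TH mouse 14). Precursors of oligodendrocytes are known to express some of the immature neuron genes, and their part in the levels below was not tested. In bulk nuclei, fewer cells that express a gene and less RNA per cell cannot be told apart.

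**Figure D1:**
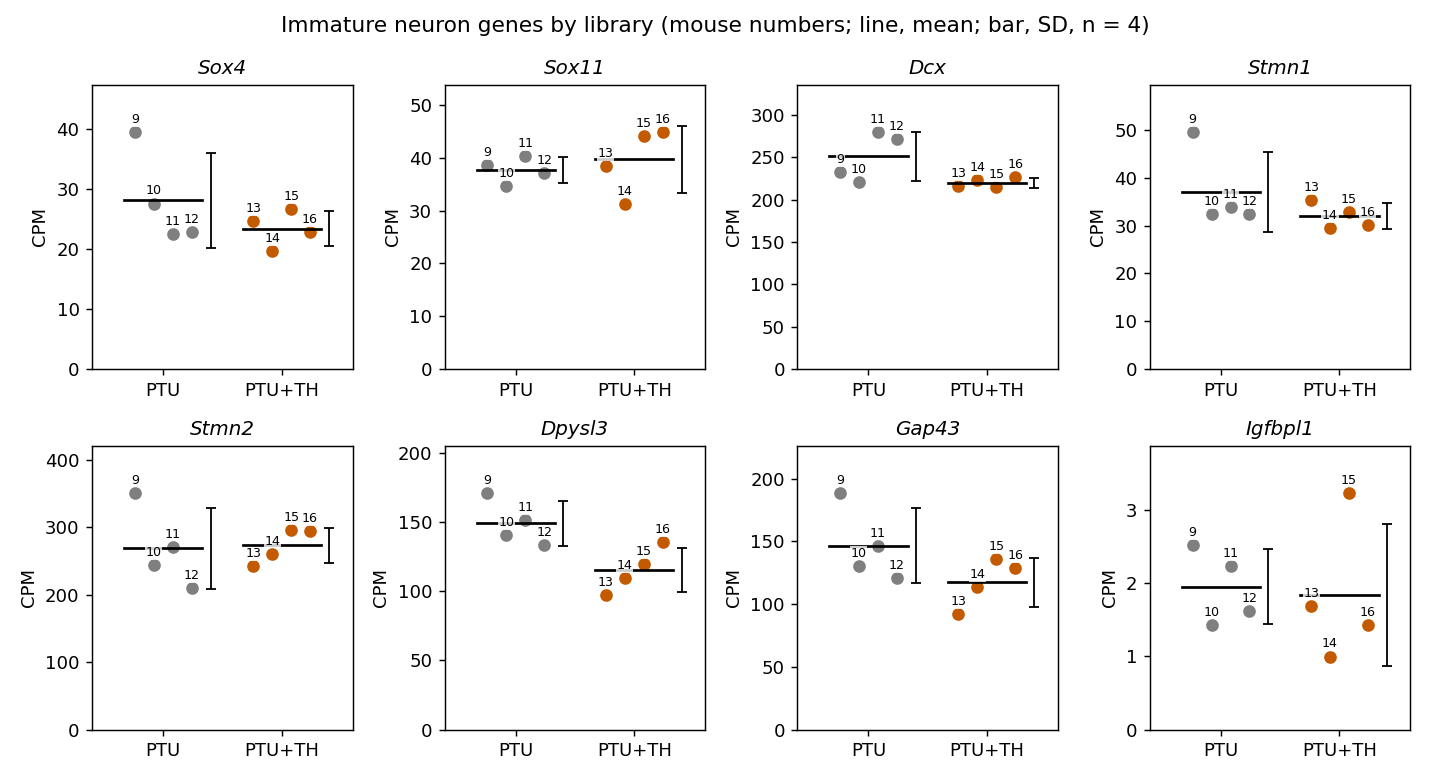
Each panel plots a gene's level in CPM (vertical axis, from 0) in the 4 PTU libraries (grey) and the 4 PTU+TH libraries (orange), with the mouse number at each point, the mean as a line and the SD as a bar. The groups overlap in all 8 panels, and mouse 9 is the highest PTU library for 6 of the genes.

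Promoter sequences are shown for the 2 SoxC factors and for Dcx, the most used marker of young neurons, because the comparison concerns a hormone whose receptors bind DNA at the half-site AGGTCA. They come from RefSeq windows on build GRCm38.p6 that run from 250 bases before to 50 after a start site, which were at hand for 4 of the 9 members (Dcx, Sox4, Sox11 and Tubb3). Only the bases before the start site and outside the annotated gene body are printed, on the minus strand, 5′ to 3′, with a half-site in capitals. These are 158 bases for Dcx (chrX:143933312-143933469), 236 for Sox4 (chr13:28953714-28953949) and 250 for Sox11 (chr12:27342719-27342968).
Dcx: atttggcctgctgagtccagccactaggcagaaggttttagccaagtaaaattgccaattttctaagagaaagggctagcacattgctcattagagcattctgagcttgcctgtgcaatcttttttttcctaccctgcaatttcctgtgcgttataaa
Sox4: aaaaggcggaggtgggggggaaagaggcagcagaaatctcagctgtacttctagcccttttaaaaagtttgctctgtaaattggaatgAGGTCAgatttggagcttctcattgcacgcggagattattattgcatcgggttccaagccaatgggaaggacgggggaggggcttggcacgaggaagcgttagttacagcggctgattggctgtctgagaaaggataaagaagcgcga
Sox11: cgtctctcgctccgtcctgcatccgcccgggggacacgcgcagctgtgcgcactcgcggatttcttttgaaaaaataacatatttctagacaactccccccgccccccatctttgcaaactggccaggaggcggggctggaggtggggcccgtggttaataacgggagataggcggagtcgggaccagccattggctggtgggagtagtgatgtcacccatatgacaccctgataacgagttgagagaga
The Sox4 window held 1 half-site, at base 89 of the printed run, and the windows of Dcx, Sox11 and Tubb3 held 0 in either orientation (AGGTCA or TGACCT). Of all 32851 windows of 300 bases in the table, 16.3% held at least 1. A match in these letters is a description and no binding was measured.

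Sox4 and Sox11 are single-exon genes of the SoxC family, which act downstream of neurogenic factors and activate neuron-specific genes such as Tubb3 and Dcx. Sox4 (chromosome 13, 28948919 to 28953713, minus strand, GRCm38) read 39.4, 27.5, 22.5 and 22.8 CPM in mice 9 to 12 (PTU), against 24.6, 19.6, 26.6 and 22.8 CPM in mice 13 to 16 (PTU+TH). Mouse 9 stood well above the rest, and mouse 10, the next highest, was within 1 CPM of PTU+TH mouse 15. The group means, PTU first, were 28.1 ± 7.90 and 23.4 ± 2.98 CPM (SD, n = 4 each), a log2 fold change of -0.27 (SE 0.17, edgeR adjusted p = 0.602). Without mouse 9 it was -0.05. Of the Sox4 body, 42.6% is free of other genes, since the noncoding gene Gm26735 covers the rest on the opposite strand, and its count is therefore uncertain.

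Sox11 (chromosome 12, 27334264 to 27342574, minus strand) was at 38.6, 34.6, 40.3 and 37.1 CPM without TH (mice 9 to 12), against 38.4, 31.3, 44.2 and 44.8 CPM after TH (mice 13 to 16). Mice 15 and 16 were the highest and mouse 14 the lowest of all 8, so the PTU+TH libraries enclosed the PTU range. The log2 fold change was 0.07 (SE 0.12, edgeR adjusted p = 0.893), with a 95% interval from a change of -11.9% to one of 25.7%. In the 6 libraries with counts of Y-linked genes it was -0.11. Those genes had 390 to 421 CPM in these 6 and 0 in PTU+TH mice 15 and 16, the libraries with the most Sox11. The part of this imbalance in the Sox11 value was not tested further. The third SoxC gene, Sox12, had a log2 fold change of -0.23 (edgeR adjusted p = 0.588).

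Dcx encodes doublecortin, a protein that binds and stabilises microtubules in migrating neurons. The gene (chromosome X, 143855842 to 143933311, minus strand) shares no base with another gene and had 4721 to 6478 counts per library. Its level was 232, 221, 279.5 and 271 CPM in mice 9 to 12 (PTU), against 215.5, 223, 214 and 227 CPM in mice 13 to 16 (PTU+TH). Mice 11 and 12 stood above all other libraries, while mice 9 and 10 lay near or within the narrow PTU+TH range. The group means, PTU first, were 251 ± 28.8 and 220 ± 5.91 CPM (SD, n = 4 each), a coefficient of variation of 11.5% against 2.69%. The log2 fold change was -0.19 (SE 0.10, edgeR adjusted p = 0.503), and its 95% interval ran from a change of -24.9% to one of 2.35%. It kept its sign in all 18 alternative fits, from -0.24 to -0.13.

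The doublecortin-like kinases, which share the microtubule-binding domain, stood at log2 fold changes of 0.20 for Dclk1, 0.04 for Dclk2 and 0.08 for Dclk3 (edgeR adjusted p = 0.686, 0.959 and 0.955). By Pearson's r of log2 CPM with Dcx over the 8 libraries, the most similar of the 9355 protein-coding genes that averaged 10 CPM or more were Slc7a14 (r = 0.986), Glis1 and Cntnap3 (0.97 each), Agbl1 (0.967) and Rapgef5 (0.966). These values describe 8 libraries in 2 groups and share their scaling, and the 5 were picked for their r. No member of the set was among them. The r of Dcx with the other 6 members above 10 CPM ran from -0.29 for Stmn2 to 0.479 for Dpysl3.

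Stathmins bind tubulin and favour the disassembly of microtubules, Stmn1 in many dividing and young cells and Stmn2 in growing axons. Stmn1 (chromosome 4, 134468320 to 134473843, plus strand) was at 49.5, 32.3, 33.8 and 32.4 CPM without TH (mice 9 to 12), against 35.3, 29.5, 32.8 and 30.2 CPM after TH (mice 13 to 16). Mouse 9 stood far above the other 7, which lay within 29.5 to 35.3 CPM. The log2 fold change was -0.21 (SE 0.14, edgeR adjusted p = 0.607) and -0.03 without mouse 9.

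Stmn2 (chromosome 3, 8509360 to 8561606, plus strand) was the most abundant member in CPM, at 351, 243, 271 and 209 CPM without TH (mice 9 to 12), against 242, 261, 296 and 294 CPM after TH (mice 13 to 16). The PTU group held both the highest and the lowest library. Its log2 fold change was 0.02 (SE 0.15, edgeR adjusted p = 0.979), with a 95% interval from a change of -18.4% to one of 26.8%. Over the 18 alternatives the fold ran from -0.10 to 0.18, the latter without mouse 9, and was below 0 in 7. The other stathmins, Stmn3 and Stmn4, stood at 0.04 and -0.03 on the log2 fold scale (0.954 and 0.957 for the edgeR adjusted p).

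Dpysl3 encodes CRMP4, a collapsin response mediator that links guidance signals to actin and microtubules in growth cones. It (chromosome 18, 43320984 to 43438286, minus strand) was at 171, 140.3, 151 and 133 CPM without TH (mice 9 to 12), against 97.4, 109, 119 and 135 CPM after TH (mice 13 to 16). All libraries but one separated the groups: PTU+TH mouse 16, at 135.4 CPM, passed PTU mouse 12, at 133.4 CPM. The group means, PTU first, were 149 ± 16.4 and 115 ± 16.1 CPM (SD, n = 4 each). The log2 fold change was -0.37 (SE 0.11), the lowest of the 8 members, at an edgeR adjusted p of 0.143. Across the 18 alternatives the fold stayed below 0, from -0.53 to -0.29, and the adjusted p from edgeR, DESeq2 or limma lay between 0.08 and 0.337.

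The other CRMP genes did not pass either. Dpysl5, which encodes CRMP5 and is also typical of young neurons, had a log2 fold change of -0.15 and Dpysl4 one of 0.10 (edgeR adjusted p = 0.58 and 0.78). Crmp1 and Dpysl2 had -0.06 and -0.03 (edgeR adjusted p = 0.89 and 0.965).

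Gap43 encodes a membrane-bound phosphoprotein of the growth cone that regulates the actin cortex. It (chromosome 16, 42248442 to 42340651, minus strand) was at 189, 130.5, 146.5 and 121 CPM without TH (mice 9 to 12), against 92.0, 113, 136 and 128 CPM after TH (mice 13 to 16). Mouse 9 was the highest and mouse 13 the lowest, with the remaining 6 interleaved. The log2 fold change was -0.32 (SE 0.15, edgeR adjusted p = 0.401). Over the 18 alternatives it ran from -0.51, with Y-linked counts as a covariate and in the 6 libraries that hold them, to -0.17 without mouse 9. Its 95% interval ran from a change of -36.1% to one of 0.313%. Among its functional relatives Basp1, Marcks and Marcksl1, the log2 fold changes were 0.03, -0.19 and -0.12, at 0.975, 0.832 and 0.954 for the edgeR adjusted p.

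Igfbpl1 encodes a secreted protein related to the insulin-like growth factor binding proteins and marks newborn neurons. The gene (chromosome 4, 45809468 to 45826923, minus strand) had only 29 to 71 counts per library. Its level was 2.51, 1.43, 2.23 and 1.62 CPM without TH (mice 9 to 12), against 1.69, 1.00, 3.23 and 1.43 CPM after TH (mice 13 to 16), with both the highest library (mouse 15) and the lowest (mouse 14) in PTU+TH. The log2 fold change was -0.09 (SE 0.36, edgeR adjusted p = 0.965), and its 95% interval ran from a change of -45.5% to one of 61.2%. Over the 18 alternatives the fold ran from -0.54 to 0.12, and it was 0.06 without mouse 9. The coefficient of variation between mice was 26.1% in PTU and 52.9% in PTU+TH. Mouse 15 also had the highest summed levels of oligodendrocyte precursor (62.1 CPM) and astrocyte (533 CPM) markers, and their part in the Igfbpl1 value was not tested. Of the 6 binding proteins related to it, 0 were called and 4 had a fold below 0, from -0.73 for Igfbp5 to 0.44 for Igfbp7. Igfbp3 was at 28.3, 30.8, 22.0 and 21.2 CPM without TH (mice 9 to 12), against 13.4, 16.1, 20.3 and 16.6 CPM after TH (mice 13 to 16). Its groups did not overlap, as in 8.71% of all genes, but it missed the threshold at a log2 fold change of -0.63 with an SE of 0.16 (edgeR adjusted p = 0.06) and passed it in 3 of the 18 alternatives.

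Tubb3 encodes class III beta-tubulin, the tubulin isotype used most often to stain neurons. It was listed at 0 in all 8 libraries and was not tested. The gene (chromosome 8, 123411424 to 123422015, plus strand) lies wholly inside the model of Gm20388, a predicted transcript whose body spans 4.43 Mb, so that 0% of Tubb3 is free of another gene. All 1265 protein-coding genes that lie inside another gene were at 0 in these files, beside 21.5% of the 11727 that share no base with another, so the 0 says nothing on expression. Of 10 tubulin genes, 8 were tested and 0 were called. Tuba1a, the other one not tested, had 1 to 7 counts per library, with 3.9% of its body free of another gene. Without PTU mouse 9, Tuba4a was called higher (log2 fold change 0.62, edgeR adjusted p = 0.0492). The log2 fold changes of the 8 in all libraries ran from -0.27 for Tubb2b, a tubulin of young neurons, to 0.26 for Tubb6 and Tuba4a.

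**Figure D2:**
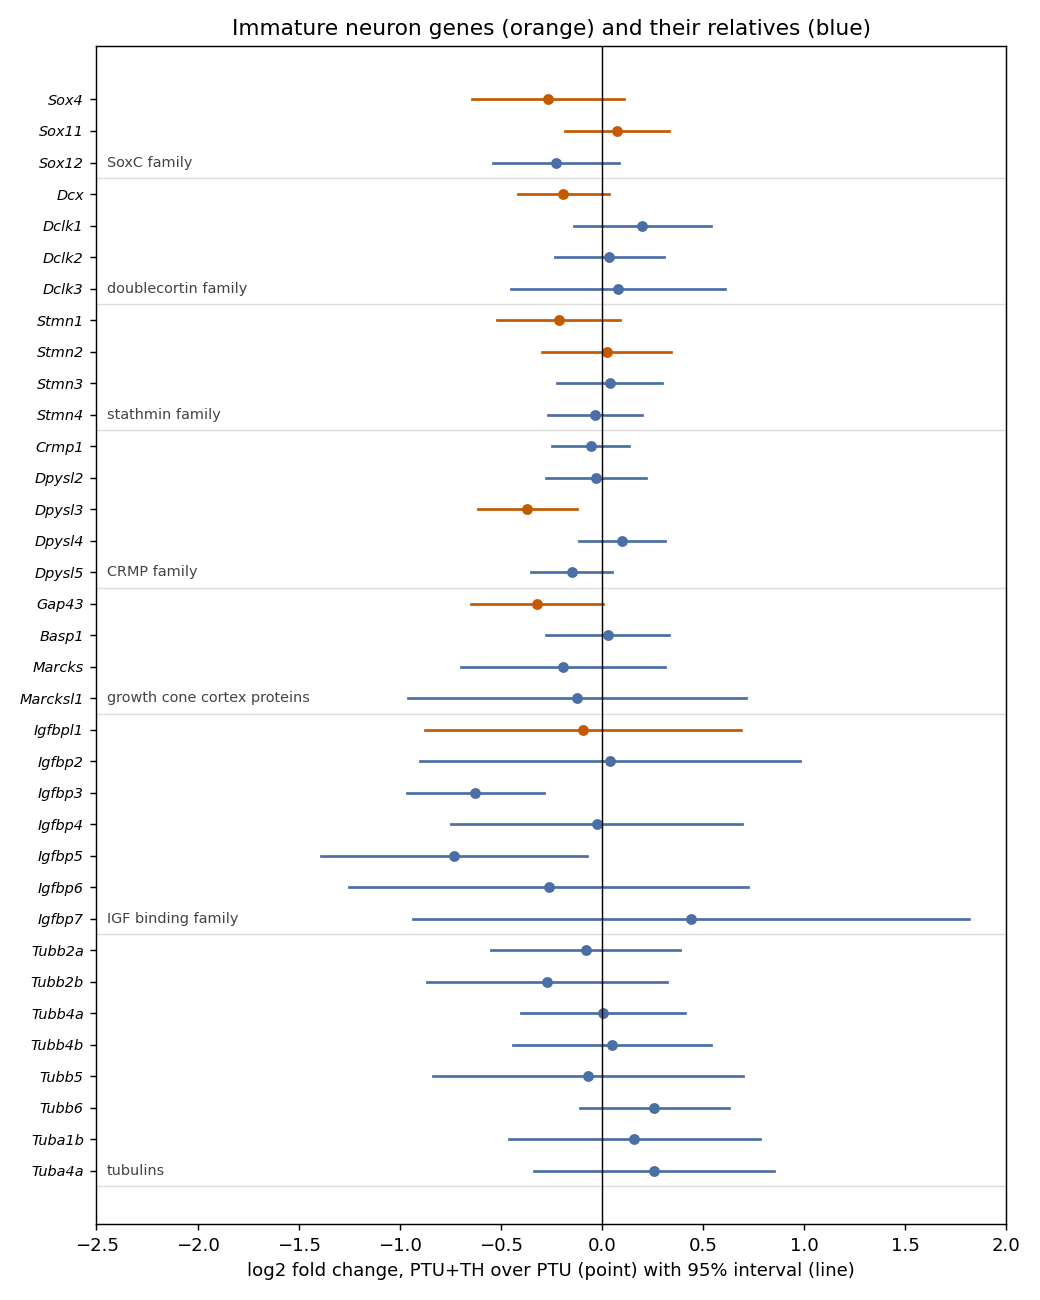
Points give the log2 fold change of PTU+TH over PTU (horizontal axis) and lines its 95% interval from the edgeR fit, for the immature neuron genes (orange) and the tested genes of their families (blue). Of the orange intervals only that of Dpysl3 lies wholly below 0, and Igfbpl1 at -0.09 has the widest of them.

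A comparison of levels between members depends on the length used. Per kilobase of gene body, which nuclear RNA with unspliced transcripts can fill, the mean over 8 libraries was 6.25 ± 1.15 CPM for Stmn1, 5.18 ± 0.83 for Stmn2 and 4.65 ± 0.55 for Sox11 (SD, n = 8), and Stmn2 lay within 1 SD of Sox11 and within the SD of Stmn1. Sox4, at 5.36 ± 1.26 CPM over its whole body (SD, n = 8), was left out of the order because only 42.6% of that body is free of another gene. Dcx followed at 3.04 ± 0.33, then Gap43 at 1.43 ± 0.30, Dpysl3 at 1.13 ± 0.20 and Igfbpl1 at 0.11 ± 0.04 CPM per kilobase (SD, n = 8). Gap43 and Dpysl3 differed by about their spread. Per kilobase of exon, Gap43 came first at 86.8 ± 18.5 CPM and Stmn2 second at 48.4 ± 7.70, and, again without Sox4, Sox11 came next to last at 4.65 ± 0.55 (SD, n = 8). Whether introns were counted is not given in the sources used here, so neither order is preferred.

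PTU mouse 9 stood apart for part of the set. It was the highest PTU library for 6 of the 8 members, with Sox4 0.62, Stmn1 0.52 and Gap43 0.52 above the mean of 8 libraries on the log2 scale, but it was near that mean for Dcx (-0.02) and Sox11. The summed level of the 10 tubulin genes, to which Tubb3 and Tuba1a add almost nothing, was 1020 CPM in mouse 9 and 423 to 734 CPM in the other 7. In mouse 9, genes with a body under 10 kb took 11.6% of all counts, against 8.31% to 10.3% in the others, and the part of this difference in the member levels was not tested. Without mouse 9 the fold was below 0 for 5 of 8 members and 0 were called. With Y-linked counts as a covariate, and in the 6 libraries that hold them, it was below 0 for all 8 and 0 were called.

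**Figure D3:**
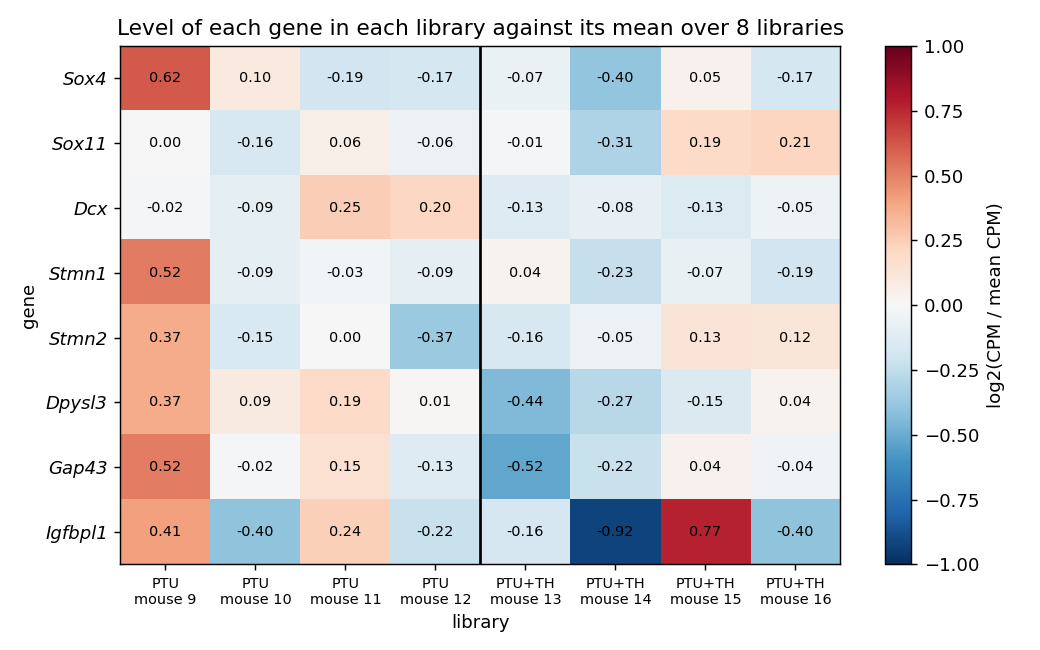
Each cell gives the log2 ratio of a gene's CPM in a library (columns) to its mean over the 8 libraries (rows are genes), red above and blue below the mean. The column of mouse 9 is red for Sox4, Stmn1, Stmn2, Dpysl3, Gap43 and Igfbpl1, while Dcx is highest in mice 11 and 12.

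Across libraries the members were related unevenly. Over the 28 pairs of members, 26 of them above 0, Pearson's r of log2 CPM ran from -0.29 to 0.915, and 0 pairs passed an adjusted p of 0.05 (exact permutation test over all 40320 orders, two-sided, adjusted over 28 pairs). The closest pair was Gap43 and Dpysl3, with r = 0.915 (exact permutation p = 0.00213, adjusted p = 0.0597) and Spearman's rho = 0.857 (exact permutation p = 0.0107, adjusted p = 0.215) over 8 libraries. Without mice 9 and 13, the farthest from the median, r was 0.697. Sox4 and Stmn1 had r = 0.902 (exact permutation p = 0.0135, adjusted p = 0.19) and rho = 0.548 (exact permutation p = 0.171, adjusted p = 0.598). Without mice 9 and 14 their r was 0.129, so that this relation rests on those 2 libraries.

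Other genes of neuronal immaturity were set beside the members, with no test between the lists. Of 24 further genes typical of young neurons, 23 were tested, 0 were called, 11 had a fold below 0 and the median log2 fold change was 0.01. L1cam, an adhesion molecule of growing axons, came closest, at 261, 288, 233 and 250 CPM without TH (mice 9 to 12), against 201, 201, 163 and 194 CPM after TH (mice 13 to 16). Every PTU library lay above every PTU+TH library, with a log2 fold change of -0.44 (SE 0.11) and an edgeR adjusted p of 0.0522. L1cam passed the threshold in 6 of the 18 alternatives, with adjusted p-values from 0.00195 to 0.43 over the 18 (edgeR, DESeq2 or limma). Leaving out PTU mouse 11 gave an edgeR adjusted p of 0.049. Ackr3, a chemokine receptor of migrating interneurons, had a log2 fold change of 0.61 and Draxin, a guidance protein, one of -0.81 (edgeR adjusted p = 0.0767 and 0.226). Ackr3 passed in 2 alternatives (adjusted p = 0.0137 with DESeq2 and 0.0455 with edgeR without PTU+TH mouse 14). Among the 23 tested, groups were apart only for L1cam and Fez1, both lower, and Ackr3, higher, beside 8.71% of all genes. Fez1, a transport adaptor of growing axons, had a log2 fold change of -0.29 (edgeR adjusted p = 0.191) and passed in 1 alternative (DESeq2 adjusted p = 0.0438). Nrep, at a log2 fold change of 0.48, passed in 1, without PTU mouse 9 (0.82, edgeR adjusted p = 0.043).

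Transcription factors of immature interneurons and genes of progenitors and the cell cycle were not called either. Of 15 interneuron factors, 13 were tested and 0 called, with 9 folds below 0 and a median log2 fold change of -0.06. Dlx2, a homeobox factor of interneuron progenitors, had a log2 fold change of -0.28 (edgeR adjusted p = 0.46). Of 12 progenitor and cell cycle genes, 11 were tested and 0 called, with 7 folds below 0 and a median of -0.34. The proliferation marker Mki67 averaged, PTU first, 1.48 ± 0.93 and 0.945 ± 0.31 CPM (SD, n = 4 each), a log2 fold change of -0.65 (edgeR adjusted p = 0.685). The groups did not overlap for 2 of the 11 tested, beside 8.71% of all genes: Ccnd2 (-0.33, edgeR adjusted p = 0.219) and Mcm2 (0.26, edgeR adjusted p = 0.763).

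Genes of mature neurons were set beside them. Of 18 such genes, 17 were tested and 1 was called higher, beside 258 called higher of all 17355 genes tested. Of the 17, 7 had a fold below 0 and the median log2 fold change was 0.05. The called gene was Nefh, the heavy neurofilament subunit of large-calibre axons, at 10.7, 10.7, 9.65 and 10.4 CPM without TH (mice 9 to 12), against 13.9, 16.9, 20.9 and 17.0 CPM after TH (mice 13 to 16). All 4 PTU+TH libraries lay above all 4 PTU libraries. The rise was 0.73 on the log2 scale with an SE of 0.14, at an edgeR adjusted p of 0.0168. Nefh passed in 12 of the 18 alternatives. Its edgeR adjusted p was 0.052, 0.0695 and 0.0543 without PTU+TH mouse 14, 15 or 16, 0.0602 with library totals, 0.173 with Y-linked counts as a covariate and 0.259 in the 6 libraries that hold them. Whether its change differed from those of the immature genes was not tested.

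**Figure D4:**
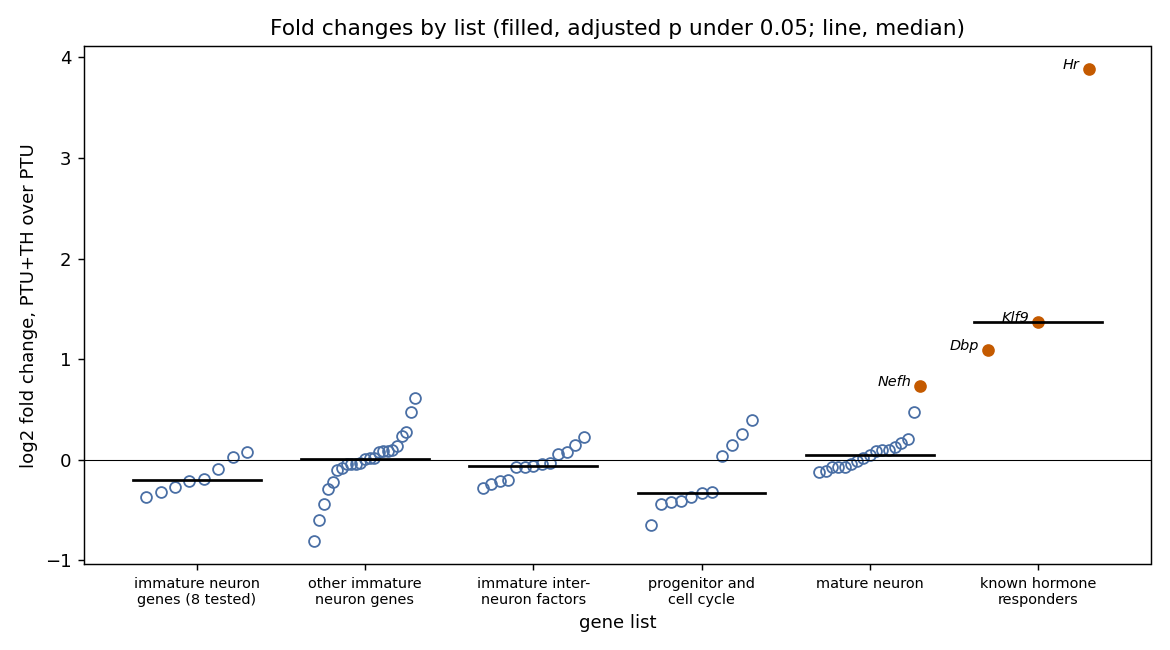
Each point is the log2 fold change of PTU+TH over PTU (vertical axis) of a tested gene in the list named below it, filled orange where the adjusted p was under 0.05 and open otherwise, with the list's median as a line. The median of the immature neuron genes is at -0.20 (-0.04 without PTU mouse 9) with 0 filled points, and the filled points are Nefh, Dbp, Klf9 and Hr.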

How the data were processed

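Nuclear RNA of 8 libraries, 1 per mouse, was read as single ends after SMART-Seq v4 and Nextera XT preparation, per the labels' protocols. Each deposited file gives, as the authors made it, an unnormalized read count for every gene symbol; Bowtie2 2.5.3 and builds mm10 and GRCm38 are named, without a role, per the submitters' processing notes. The counter, annotation, strand and treatment of introns are not given in the sources used here. All 55341 symbols matched GENCODE M21 (GRCm38), which gave positions and overlaps.

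Genes were kept with filterByExpr, scaled with TMM and tested with the robust quasi-likelihood test of edgeR 4.0.16 (R 4.3.3) with group as the only term; adjustment was by Benjamini-Hochberg over 17355 genes. Standard errors and 95% intervals come from that fit. Log2 CPM used a prior count of 2. Alternatives used DESeq2 1.42.0, limma 3.58.1 (voom), other scalings and filters, a Y-linked or mouse number covariate, and leaving out each library. The script was tested on simulated data with 200 changed genes. It called 16% of them at a log2 fold change of 0.5 and 66% at 1. The members' folds, from -0.37 to 0.07, were smaller than either size, so 0 calls does not show that the members were unchanged.

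The members, the gene lists and the mouse number covariate were chosen with earlier results of these data known. Genes named are the members, list genes that were called, relatives of the members, the 5 genes most like Dcx, and Hr, Klf9 and Dbp. Gad1 and Gad2 are label checks, and markers listed at 0 are named because they add nothing to their sums. L1cam, Igfbp3, Ackr3, Draxin, Dlx2, Dlx6os1, Fez1, Penk, Th, Ccnd2, Mcm2, Nrep, Bcas1, Tuba4a and Mki67 were picked after their values were seen. In pairs of libraries of a group, the chi-square of counts per degree of freedom was at least 8.38, so no pair agreed within sampling noise.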

Additional observations from a re-analysis of the deposited data

Results flagged for a closer look

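For the genes named here, 88 sets of 4 CPM values (a gene in a group) were searched for a library far from its group, and 4 sets held one; chance flags about 5% of sets. The number in brackets is the distance to the closest other library divided by the spread from lowest to highest. Stmn1 reached 49.5 CPM in PTU mouse 9, while its group otherwise spanned 32.3 to 33.8 CPM (0.912). Sox12 reached 37.3 CPM in the same mouse, while its group otherwise spanned 24.3 to 25.8 CPM (0.891). Stmn4 reached 111 CPM there, while its group otherwise spanned 78.4 to 83.7 CPM (0.838). Sox12 was low in PTU+TH mouse 14, with 20.7 CPM beside 24.8 to 25.6 CPM (0.837).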

How the results depend on the processing

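No paired analysis was possible because no number is shared by a PTU and a PTU+TH mouse. In the 18 alternatives 0 members were called, and Dcx, Sox4, Stmn1, Gap43 and Dpysl3 had folds below 0 in all of them. The genes called over the whole table numbered 368 in the test used above, 756 with DESeq2, 642 with the mouse number covariate (mice 9, 10, 13 and 14 against 11, 12, 15 and 16, sets of mice and not pairs), 129 with Y-linked counts as a covariate, 58 in the 6 libraries that hold Y-linked counts, and 182 (without PTU+TH mouse 15) to 499 (without PTU mouse 9) when a library was left out. The 6 libraries are fewer samples, and the covariate fit draws its group fold from the same 6. The cause of the differences in calls was not tested. On the log2 scale Stmn2 changed sign to -0.0125 with library totals, -0.0960 after the Y-linked adjustment and -0.0946 in the 6 libraries, and with a library left out it ran from -0.0781 (without PTU mouse 12) to 0.18 (without PTU mouse 9). Sox11 was -0.11 under both of these Y-linked settings. The covariate sets mice 15 and 16 apart, so both settings draw the group fold from the same 6 libraries. Their likeness is fixed by that design. When a library was left out Igfbpl1 ran from -0.51 (without PTU+TH mouse 15) to 0.12 (without PTU+TH mouse 14), and it was -0.54 under both Y-linked settings. It had 29 to 71 counts per library.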
